A study of Mus musculus with 2 samples.

Results

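10 of the 19059 genes measured in single-cell RNA sequencing (scRNAseq) of mouse skin are described here, namely the Notch receptors Notch1, Notch2 and Notch3, the ligands Jag1, Jag2 and Dll1, the nuclear factors Rbpj and Maml2, and the transcriptional repressors Hes1 and Hey1. These 10 genes were chosen by name as members of the Notch pathway, and all 10 were measured. The study compared dorsal skin of 1 wildtype C57BL/6J mouse with that of 1 Eppk1-/- mouse backcrossed to C57BL/6J. Eppk1 encodes epiplakin, a large plakin protein that binds keratin filaments in epithelia. Eppk1-/- is a germline knockout, so all cell types of that mouse carried it. Punch biopsies were minced, dissociated with enzymes, fixed and profiled with gene-specific probes, and each genotype gave 1 library. The age and sex of the mice are not given in the sources used here.

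Notch signalling passes between neighbouring cells. A ligand of the Jagged or Delta-like family on 1 cell binds a Notch receptor on the next, proteases then release the intracellular domain of the receptor, and that domain enters the nucleus, where it joins the DNA-binding protein RBPJ and a Mastermind-like coactivator such as MAML2 and switches on target genes. Hes1, Hes5, Hey1 and Nrarp are textbook targets. In epidermis the pathway is known for its part in the step from basal to spinous cells and in the upkeep of hair follicles and sebaceous glands. Hes1 also responds to other inputs and has been described as an oscillating gene with a short-lived transcript.

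Hes1, at chr16:30064384-30067796 on the plus strand of GRCm38, was the 1 member past the size rule in keratinocytes as a whole. Wildtype keratinocytes held 398 CPM (counts in 1000000) of it, and those of the Eppk1-/- mouse held 237 CPM. This gives a knockout over wildtype log2 ratio of -0.75, with a 95% interval of -0.79 to -0.71. The lower Hes1 level was known from earlier results of these libraries when the genes were chosen. Its direction, size and rank are therefore no independent evidence. Among the keratinocyte classes compared, the difference was largest in the interfollicular stages, and it ran the other way in a cluster with fibroblast genes. Dll1 was also lower in basal-like and spinous-like cells, whereas the 3 receptors and Rbpj had keratinocyte log2 ratios between 0.02 and 0.30.

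The libraries held 9179 wildtype and 8811 Eppk1-/- cells with 77638793 and 65118304 unique molecular identifiers (UMIs), of which 8875 and 8617 cells passed the study's filters, with medians of 4963 and 5006 UMIs. Keratinocytes made up 61.2% of the wildtype and 46.3% of the Eppk1-/- cells, that is 5431 and 3990 cells. Since there was 1 library per genotype, no test between genotypes was possible and no p-value is given, and every interval covers counting error only, not the spread between mice. CPM is the sum of a gene's UMIs in a class of cells for each 1000000 UMIs of that class, and a log2 ratio was called past the size rule at 0.5 or more in either direction with at least 50 UMIs over both libraries. Probe numbers differ between genes, so levels are compared between classes of cells and never between genes. The libraries shared 1211 droplet barcodes. As a check of the labels, the level of Eppk1 itself was 2964 CPM in keratinocytes of the wildtype and 786 CPM in those of the knockout. In basal-like cells these values were 1184 and 63.3 CPM, while granular-like cells of the knockout retained 3033 CPM against 6744 CPM in wildtype. The class of the latest stage, with 50 and 34 cells too small to compare, ran the other way, with 101 CPM (93 UMIs) in wildtype and 499.7 CPM (309 UMIs) in the knockout.

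Classes of cells are clusters named from marker genes, and "-like" marks that the name rests on those markers. Of 12 keratinocyte classes, 9 held at least 50 cells in each library and were compared, as were 11 other classes. The keratinocyte classes were basal-like (1593 wildtype and 1274 Eppk1-/- cells), spinous-like (990 and 899), granular-like (414 and 250) and proliferating-like (132 and 128). Follicle classes were upper follicle-like (522 and 361) and isthmus-like (329 and 165). Bulge-like classes had Lgr5 and Krt24 (438 and 223) or Fgf18 and Cd34 (240 and 153). A class with Fst and Sostdc1 among its leading genes was given no cell type name (587 and 458). Fst is on the upper follicle marker list and Sostdc1 on the outer sheath and isthmus list. The leading genes of the upper follicle-like class held as many inner sheath markers (Tchh, Krt71 and Krt27) as upper follicle markers. A companion layer-like class with Krt75 had 61 and 12 cells and is given by its levels only. A cluster led by Pla1a and Ptx3 had all 10 fibroblast markers detected, but its 10 leading genes held 1 endothelial marker and 0 fibroblast markers, so it is called by its leading genes. The leading genes of the isthmus-like class, the Angpt4/Myoc class and a basal-like sub-cluster held 0 markers of their own or another type. In wildtype the summed outer sheath and isthmus markers were 7299 CPM in isthmus-like and 7894 CPM in upper follicle-like cells, so the isthmus name is weak. The Il1b/Clec4e cluster was led by immunoglobulin genes and carries no cell type name.

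In the 300 bp promoter windows of RefSeq (GRCm38.p6), which run from 250 bases before to 50 after a transcript start, the core RBPJ motif TGGGAA, or TTCCCA where it lies on the other strand, was found in 3 of 11 windows of 8 members (27.3%), beside 8397 of 32851 windows of all genes (25.6%) and 15 of 67 windows of the other Notch pathway genes (22.4%). The table held no window for Hes1 or Hey1. Windows of 1 gene can overlap, as those of Rbpj do. The windows of 3 genes are shown, each 5′ to 3′ on the strand of the gene with the motif in capitals. Hes5 (chr4:154960673-154960972, plus strand) is a target gene with 1 motif on each strand, Rbpj (chr5:53590096-53590395, plus strand) is the member with 2 motifs in 1 window, and Dll1 (chr17:15375774-15376073, minus strand), the second-most lowered member, has none in either of its windows.
Hes5: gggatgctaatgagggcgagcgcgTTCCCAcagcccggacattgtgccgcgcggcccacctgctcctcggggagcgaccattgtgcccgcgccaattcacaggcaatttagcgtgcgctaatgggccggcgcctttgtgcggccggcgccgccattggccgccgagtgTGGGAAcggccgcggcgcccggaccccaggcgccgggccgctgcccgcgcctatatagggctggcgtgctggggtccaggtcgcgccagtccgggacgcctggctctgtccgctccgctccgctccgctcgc
Rbpj: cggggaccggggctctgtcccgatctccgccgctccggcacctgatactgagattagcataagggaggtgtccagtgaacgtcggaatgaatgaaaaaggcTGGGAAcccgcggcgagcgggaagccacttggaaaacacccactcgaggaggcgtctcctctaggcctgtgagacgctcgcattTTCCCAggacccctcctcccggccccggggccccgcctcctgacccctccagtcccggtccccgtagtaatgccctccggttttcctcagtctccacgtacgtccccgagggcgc
Dll1: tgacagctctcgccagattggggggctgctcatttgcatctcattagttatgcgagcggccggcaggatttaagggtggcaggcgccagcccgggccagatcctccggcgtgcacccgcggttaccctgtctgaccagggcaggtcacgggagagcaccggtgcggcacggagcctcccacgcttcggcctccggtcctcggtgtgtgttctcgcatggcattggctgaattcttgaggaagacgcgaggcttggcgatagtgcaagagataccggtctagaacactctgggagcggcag
A match is only a match of letters, and the absence of one says nothing of binding outside these 300 bases.

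In keratinocytes all 10 members passed the 50 UMI minimum. Of these, 0 were higher and 1 was lower by the size rule, against 2.4% higher and 5.1% lower among the 11579 genes that passed the same minimum. The median log2 ratio of the 10 members was -0.04, and that of all genes was -0.02. Hes1 had the lowest ratio of the list, with Dll1 next at -0.40. With classes weighted by their shares of wildtype cells, Dll1 was at -0.49 and Hes1 at -0.42, and neither passed the rule.

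**Figure D1:**
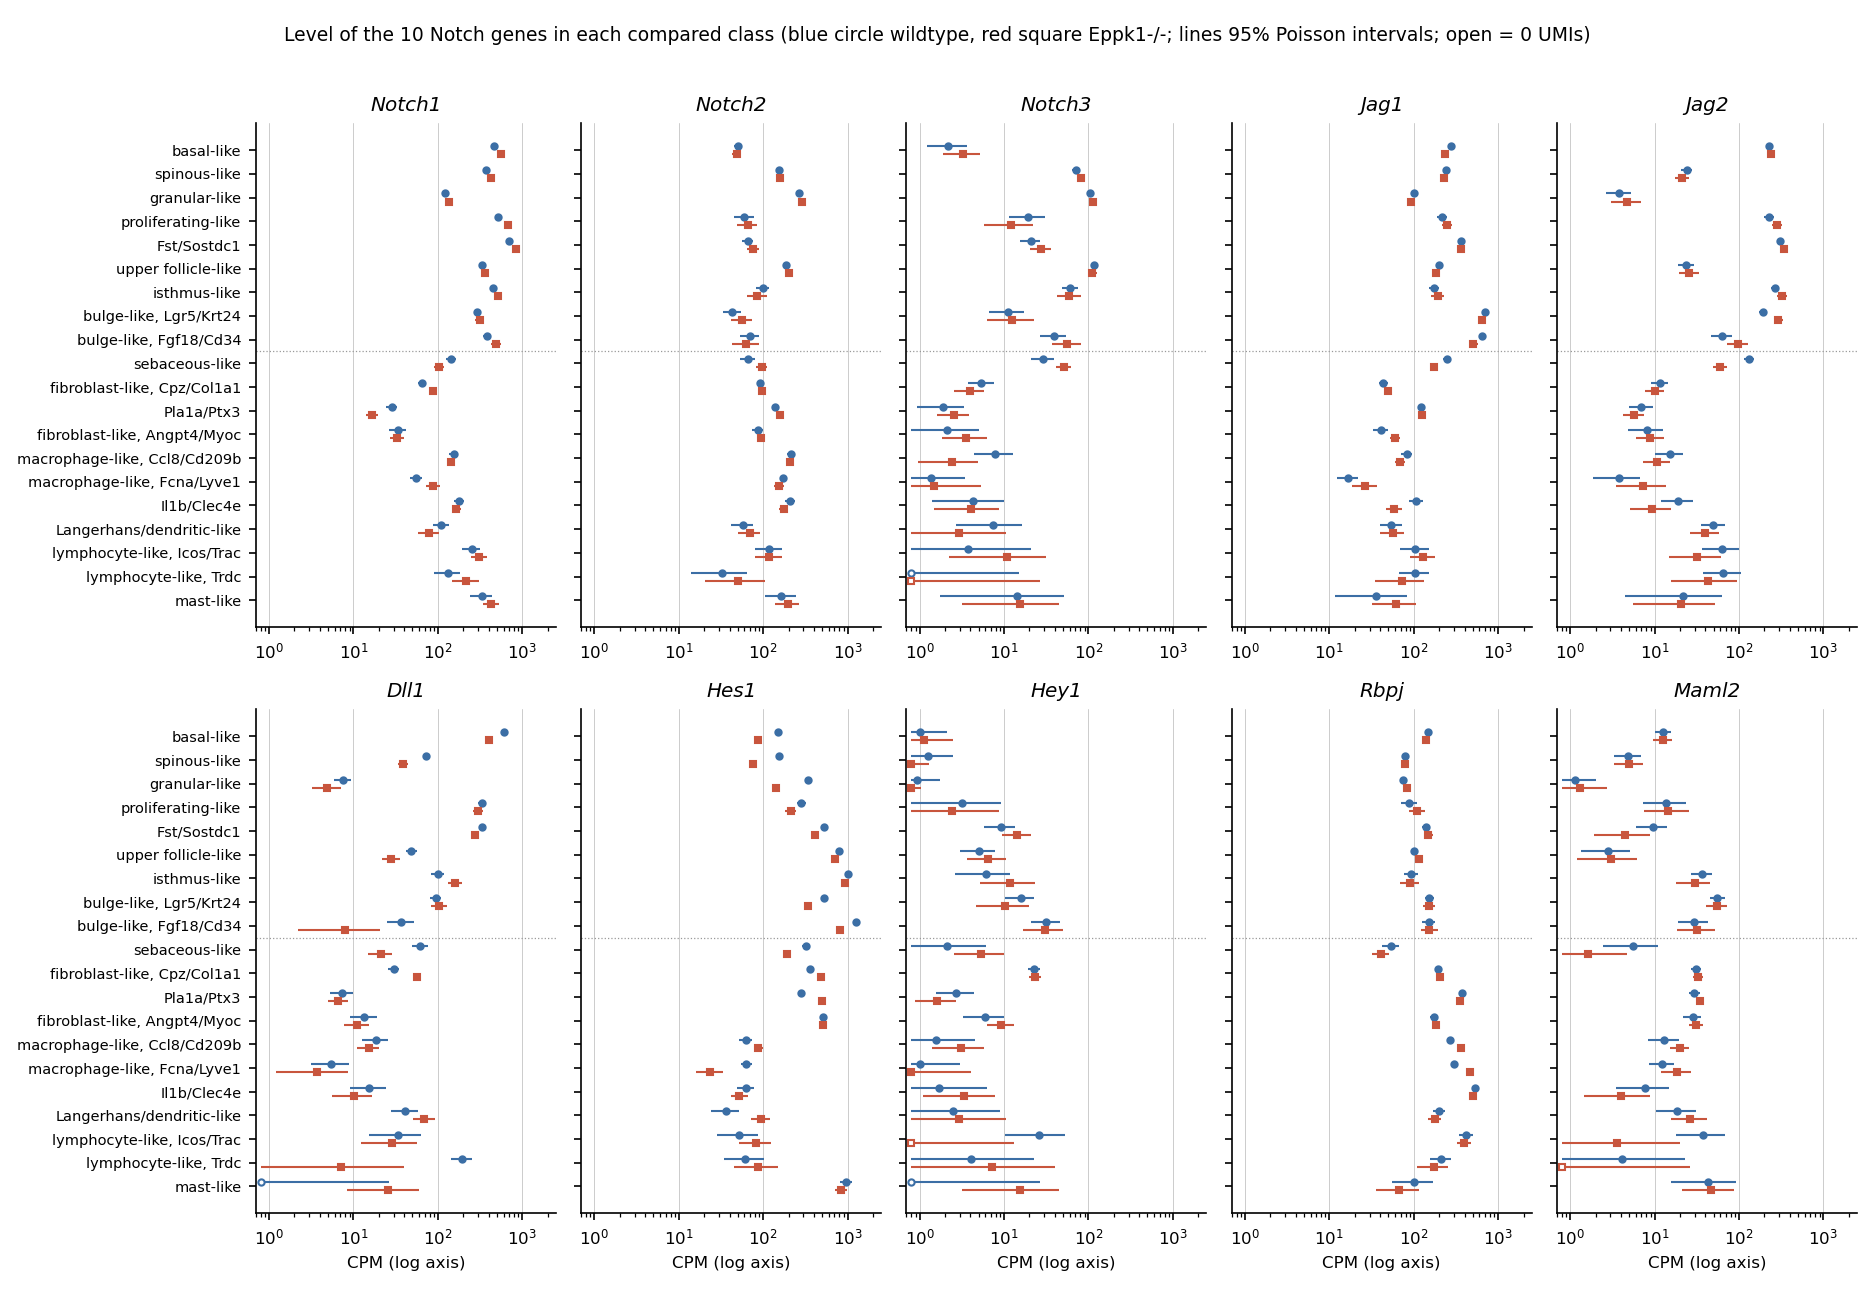
Level of each member by class of cells, as CPM on a log axis, with blue circles for the wildtype and red squares for the Eppk1-/- library, lines for exact 95% Poisson intervals (counting error only), and values under the axis drawn at its left edge. The ligands Jag2 and Dll1 sit high in basal-like cells and low in granular-like cells, Notch2 and Notch3 run the opposite way, and Hes1 of the knockout lies left of wildtype in the basal-like, spinous-like and granular-like rows.

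The genes of the 3 receptors lie at chr2:26457903-26516663 on the minus strand (Notch1), chr3:98013527-98150361 on the plus strand (Notch2) and chr17:32120820-32166852 on the minus strand (Notch3) of GRCm38. Their levels followed different stages of the epidermis. Notch1 was high in basal-like cells and lower in later stages, at 463 CPM in basal-like, 375 CPM in spinous-like and 121 CPM in granular-like wildtype cells. Notch2 followed the reverse order, with 50.01, 153 and 264 CPM in the same 3 classes. Notch3 was nearly undetected in basal-like cells, at 2.19 CPM (15 UMIs), and reached 71.0 CPM in spinous-like, 105 CPM in granular-like and 117 CPM in upper follicle-like cells. The wildtype intervals of the 3 stages did not overlap for any of the 3 receptors. The Eppk1-/- library kept each of these orders, with 558, 424 and 136 CPM for Notch1, 48.5, 160 and 290 CPM for Notch2, and 3.23, 82.55 and 114 CPM for Notch3. For Notch3 the levels of the granular-like and upper follicle-like classes overlapped in both libraries.

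Between genotypes, Notch1 was higher in all keratinocytes of the knockout by a log2 ratio of 0.30 (interval 0.26 to 0.34), under the size rule. Its log2 ratio was above 0 in all 9 compared keratinocyte classes, from 0.09 in Lgr5/Krt24 bulge-like cells to 0.38 in Fgf18/Cd34 bulge-like cells, where the levels were 379 and 492 CPM. The intervals of the upper follicle-like and Lgr5/Krt24 bulge-like classes reached below 0, and the classes come from the same pair of libraries. Outside keratinocytes Notch1 was lower in the Pla1a/Ptx3 cluster, with 28.3 CPM in wildtype and 16.7 CPM in the knockout. Notch2 and Notch3 each had a keratinocyte log2 ratio of 0.02, with intervals of -0.04 to 0.08 and -0.08 to 0.11. The Notch3 value in Fgf18/Cd34 bulge-like cells was 38.9 and 56.4 CPM, a log2 ratio of 0.54 whose interval of -0.25 to 1.31 includes 0, and with the mean over cells in place of the sum it was -0.01. Vascular mural cells are known for Notch3, and the Acta2/Myh11 cluster held 152 and 301 CPM of it. That cluster had 70 and 38 cells with only 85617 and 86266 UMIs of all genes, and was too small to compare.

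Ligand levels marked other cells than Notch2 and Notch3 did. The ligand genes are all on minus strands, at chr2:137081456-137116644 (Jag1), chr12:112907819-112929776 (Jag2) and chr17:15367354-15376872 (Dll1). Jag1, which matters in the follicle and in differentiating epidermis, was highest in the 2 bulge-like classes, at 696 CPM in Lgr5/Krt24 and 641 CPM in Fgf18/Cd34 wildtype cells, against 273 CPM in basal-like and 100.3 CPM in granular-like cells. Jag2 was a gene of undifferentiated cells, with 225 CPM in basal-like, 305 CPM in Fst/Sostdc1 and 267 CPM in isthmus-like wildtype cells but 24.0 CPM in spinous-like and 3.83 CPM in granular-like cells. Dll1, a ligand known in interfollicular stem cells, was higher in basal-like cells than in any other compared class, at 612 CPM, followed by the Fst/Sostdc1 class with 333 CPM and proliferating-like cells with 332 CPM, which did not differ beyond counting error. It was at 72.4 CPM in spinous-like and 7.45 CPM in granular-like cells.

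Dll1 was the member with the second-largest difference in keratinocytes, 188 CPM in wildtype against 142 CPM in knockout cells, a log2 ratio of -0.40 (-0.46 to -0.34) that missed the size rule. In basal-like cells the levels were 612 and 400.2 CPM, a log2 ratio of -0.61 (-0.69 to -0.54), and in spinous-like cells 72.4 and 39.1 CPM, a log2 ratio of -0.89 (-1.13 to -0.65). Both classes kept this side of the rule under all 11 alternatives run for them. Upper follicle-like cells had 48.5 and 28.0 CPM (-0.79), a difference that shrank to -0.26 when each cell was thinned to 2000 UMIs. In isthmus-like cells the order was reversed, with 100.01 CPM in wildtype and 161 CPM in the knockout, a log2 ratio of 0.69 (0.30 to 1.06), or 0.21 when these cells were gated by markers in place of clusters. The granular-like value of -0.59 rested on 72 and 26 UMIs, had an interval of -1.31 to 0.06 and was 0.08 after thinning. Dll1 was thus lower in the basal-like class, where its level was highest, and past the rule upward in 1 follicle class. The classes next in level stayed under the rule, Fst/Sostdc1 with 333 and 275 CPM and proliferating-like cells with 332 and 300.1 CPM. In spinous-like cells the Dll1 UMIs lay in 127 of 990 wildtype and 84 of 899 knockout cells, and 1 knockout cell held 38 of 219. Summed basal markers in that class were at 13098 and 11333 CPM, and summed spinous markers at 33560.5 and 39320 CPM. The part of these differences in the spinous-like values of Dll1 and Hes1 was not tested.

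Jag1 differed little in keratinocytes, with 236 and 221 CPM (log2 ratio -0.09), and its lowest keratinocyte class values were -0.22 in basal-like and -0.33 in Fgf18/Cd34 bulge-like cells. Jag2 was at 104 CPM in keratinocytes of the wildtype and 121 CPM in those of the knockout (0.22). It passed the size rule upward in both bulge-like classes, with 195 and 293 CPM in Lgr5/Krt24 cells (0.59, interval 0.35 to 0.83) and 62.5 and 96.7 CPM in Fgf18/Cd34 cells (0.63, interval 0.03 to 1.22). The latter was 0.19 with thinning and 0.95 as the mean of each cell's CPM. In basal-like cells, where Jag2 is also abundant, the log2 ratio was 0.10.

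The nuclear partners, Rbpj (chr5:53466152-53657362, plus strand) and Maml2 (chr9:13297957-13709388, plus strand), had ratios under the size rule in keratinocytes. Rbpj stood at 102 and 106 CPM (log2 ratio 0.05, interval -0.03 to 0.12), and in the 9 classes its log2 ratios ran from -0.08 to 0.32. Maml2 was sparse, at 10.4 and 9.01 CPM (-0.21, interval -0.46 to 0.03), with values of -0.41 as the mean of each cell's CPM and -0.49 with thinning. It was highest in Lgr5/Krt24 bulge-like cells at 55.4 and 55.1 CPM. Hey1 (chr3:8663359-8667256, minus strand), a relative of Hes1, was close to its detection limit in interfollicular classes, with 1.02 CPM in basal-like and 0.931 CPM in granular-like wildtype cells. Its highest level among compared classes was in Fgf18/Cd34 bulge-like cells, 31.9 CPM in wildtype and 30.2 CPM in the knockout, and the small endothelial-like cluster held 86.3 and 96.7 CPM. In keratinocytes Hey1 had 149 and 89 UMIs, or 4.18 and 3.71 CPM (-0.17, interval -0.57 to 0.22).

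Hes1, the repressor read most often as a sign of Notch activity, was foremost a follicle gene in keratinocytes. In wildtype it was highest in the companion layer-like class at 2644 CPM, then in Fgf18/Cd34 bulge-like cells at 1256 CPM, isthmus-like cells at 1006 CPM and upper follicle-like cells at 799 CPM. The Fst/Sostdc1 class and the Lgr5/Krt24 bulge-like class held 520.1 and 519.8 CPM, which did not differ beyond counting error. Within the interfollicular stages it stood at 149 CPM in basal-like and 153 CPM in spinous-like cells, with overlapping intervals, and at 343 CPM in granular-like cells. Mast cell-like cells, at 959 CPM, were the richest of the immune classes, whereas macrophage-like, Langerhans or dendritic cell-like and lymphocyte-like cells held 35.98 to 63.1 CPM in wildtype.

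In Eppk1-/- skin the interfollicular stages held 85.9 CPM in basal-like, 76.3 CPM in spinous-like and 141 CPM in granular-like cells. The log2 ratio of knockout over wildtype was -0.79 (-0.96 to -0.63) in basal-like and -1.01 (-1.17 to -0.84) in spinous-like cells. In granular-like cells it was -1.28 (-1.40 to -1.17), and the intervals of the basal-like and granular-like classes did not overlap. These intervals are for summed UMIs, and the gap between the 3 stages depended on the measure, as given below. With Dll1, 2 members passed the size rule in each of these classes, of 8 basal-like, 9 spinous-like and 8 granular-like members with 50 UMIs, where 7.38%, 6.68% and 8.76% of all genes did so in either direction. Among all genes tested, 1.12% in basal-like, 0.766% in spinous-like and 0.287% in granular-like cells (25 of 8726) had a lower ratio than Hes1. These counts and ranks are descriptive, since Hes1 was chosen with its lower level known. In the knockout the basal-like and spinous-like levels had intervals that overlapped those of lymphocyte-like and Langerhans or dendritic cell-like cells. However, 1 knockout cell held 39 of 64 Hes1 UMIs of the Langerhans or dendritic cell-like class, and 1 held 18 of 23 in Icos/Trac lymphocyte-like cells. Ccl8/Cd209b macrophage-like cells (87.4 CPM) also overlapped both. The Il1b/Clec4e cluster (52.4 CPM) and Fcna/Lyve1 macrophage-like cells (23.6 CPM) were lower than both, without overlap. What part of the remaining knockout level is background was not tested. With every alternative run for the 3 stages, 12 each, the log2 ratio stayed below -0.5. It ran from -1.01 to -0.74 in basal-like, -1.07 to -0.81 in spinous-like and -1.82 to -1.02 in granular-like cells. After cells were thinned to equal depth, mean Hes1 UMIs per cell were 0.324 in wildtype and 0.160 in knockout basal-like cells. In spinous-like cells they were 0.376 and 0.196, and in granular-like cells 0.944 and 0.464. With these means the granular-like difference did not stand out from that of the other stages.

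**Figure D2:**
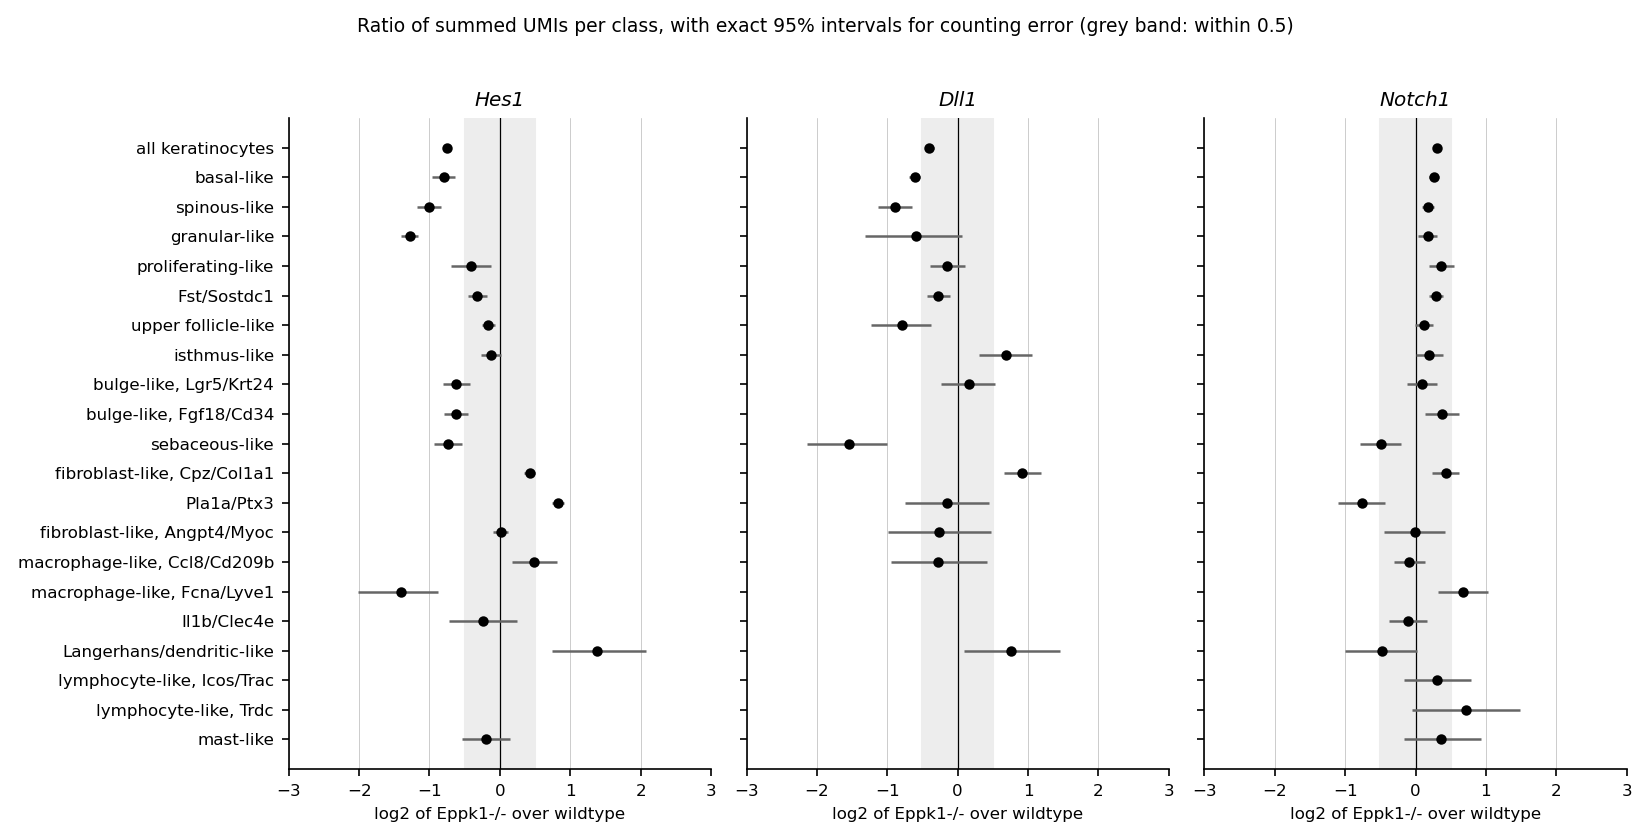
Log2 ratio of Eppk1-/- over wildtype CPM by class of cells, with exact 95% intervals (counting error only) for Hes1, Dll1 and Notch1 in classes with at least 50 UMIs of the gene, and a grey band within 0.5 of 0 (the size rule). Hes1 lies left of the band in the basal-like, spinous-like and granular-like classes and right of it in the Pla1a/Ptx3 cluster, and Notch1 lies right of 0 in all 9 keratinocyte classes.

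With summed UMIs the ratios of Hes1 were nearer to 0 in several other keratinocyte classes. Upper follicle-like cells held 799 and 714 CPM of Hes1 (log2 ratio -0.16, interval -0.25 to -0.08) and isthmus-like cells 1006 and 921 CPM (-0.13, interval -0.27 to 0.01). The upper follicle-like value depended on the measure. It ran from -1.71 to 0.40 and was past the rule in 2 of 12 alternatives. After thinning, mean Hes1 UMIs per upper follicle-like cell were 2.25 in wildtype and 1.49 in the knockout, and 22.2% and 16.5% of cells had 3 or more. The Fst/Sostdc1 class had 520.1 and 417 CPM (-0.32), and proliferating-like cells had 282 and 213 CPM (-0.41). In the latter 1 knockout cell held 48 of the 175 UMIs, and the value was -1.16 without the droplet barcodes that the libraries share and past the rule in 3 of 9 alternatives. Both bulge-like classes passed the rule, with 519.8 and 338 CPM (-0.62, interval -0.81 to -0.43) in Lgr5/Krt24 and 1256 and 816 CPM (-0.62, interval -0.79 to -0.46) in Fgf18/Cd34 cells. As the mean of each cell's CPM these values were -0.32 and -0.37, under the rule, and thinning gave -0.51 and -0.36. The 12 companion layer-like cells of the knockout held 2784 CPM, and the interval of 2338 to 3292 CPM includes the wildtype level. In number of members past the rule, the proliferating-like class had 0 of 7 and the Fst/Sostdc1 class 0 of 8, the upper follicle-like class had 1 of 8 and the isthmus-like class 1 of 9 (Dll1 in both), Lgr5/Krt24 cells had 2 of 8 (Jag2 and Hes1), and Fgf18/Cd34 cells had 3 of 7 (Notch3, Jag2 and Hes1). The shares of all genes past the rule in either direction were 13.0% in proliferating-like cells, 8.82% in the Fst/Sostdc1 class, 8.15% in upper follicle-like, 13.1% in isthmus-like, 14.1% in Lgr5/Krt24 and 14.7% in Fgf18/Cd34 cells.

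The keratinocyte value of Hes1 depended on which cells were in the pool and on how they were weighted, since in the pool each class weighs by its UMIs. Granular-like cells were 7.62% of wildtype and 6.27% of Eppk1-/- keratinocytes and carried 23.4% and 13.2% of the Hes1 UMIs. They are deep cells, with medians of 22476.5 and 20666.5 UMIs against 4517 and 4561.5 in all keratinocytes. Of all keratinocyte UMIs they held 9666896 of 35619495 in wildtype and 5319821 of 23982115 in the knockout. Companion layer-like cells were 1.12% and 0.301% of keratinocytes with 7.76% and 2.41% of the Hes1 UMIs. When the CPM of each class was weighted by its share of wildtype cells, the log2 ratio was -0.42 in place of -0.75, under the size rule, and 0 members then passed it. Without the companion layer-like class it was -0.68. The value of the pool and those of the stages are therefore separate measures.

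Cell by cell, Hes1 was unevenly spread. The 10% of granular-like cells with most Hes1 held 72.9% of the Hes1 UMIs of that class in wildtype and 72.1% in the knockout, and in spinous-like cells these shares were 89.1% and 90.2%. After each cell was thinned to 2000 UMIs, 27.5% of wildtype (exact binomial interval 26.3% to 28.8%) and 19.3% of Eppk1-/- keratinocytes (17.97% to 20.6%) had a Hes1 UMI, against 38.9% and 28.7% without thinning, with 566 and 487 shallower cells left out. The share with 3 or more was 10.4% and 6.25%. In basal-like cells 19.96% and 11.5% had a UMI, and in granular-like cells 25.7% and 20.6%, while 12.4% and 5.65% of granular-like cells had 3 or more. Spinous-like cells, at 11.5% and 8.19%, were not far from classes with little Hes1, since Fcna/Lyve1 macrophage-like cells had 10.8% and 3.96% and Langerhans or dendritic cell-like cells 6.52% and 3.81% (median depths of 4993.5 and 5271.5 UMIs in the latter, against 5790.5 and 5754 in spinous-like cells). A share with any UMI at that level may be background. The 11.5% of knockout basal-like cells is close to the 10.8% of wildtype Fcna/Lyve1 cells, but above the 3.96% and 3.81% of those classes in the knockout. What part of it is background was not tested. Neither these shares nor the remaining level in those cells is therefore read as expression. With 3 or more Hes1 UMIs there were 4.18% and 1.52% of spinous-like and 2.54% and 1.02% of basal-like cells. In Fcna/Lyve1 macrophage-like cells this share was 0% in both libraries. It was 0% and 1.90% in Langerhans or dendritic cell-like and 1.68% and 1.23% in Ccl8/Cd209b macrophage-like cells.

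**Figure D3:**
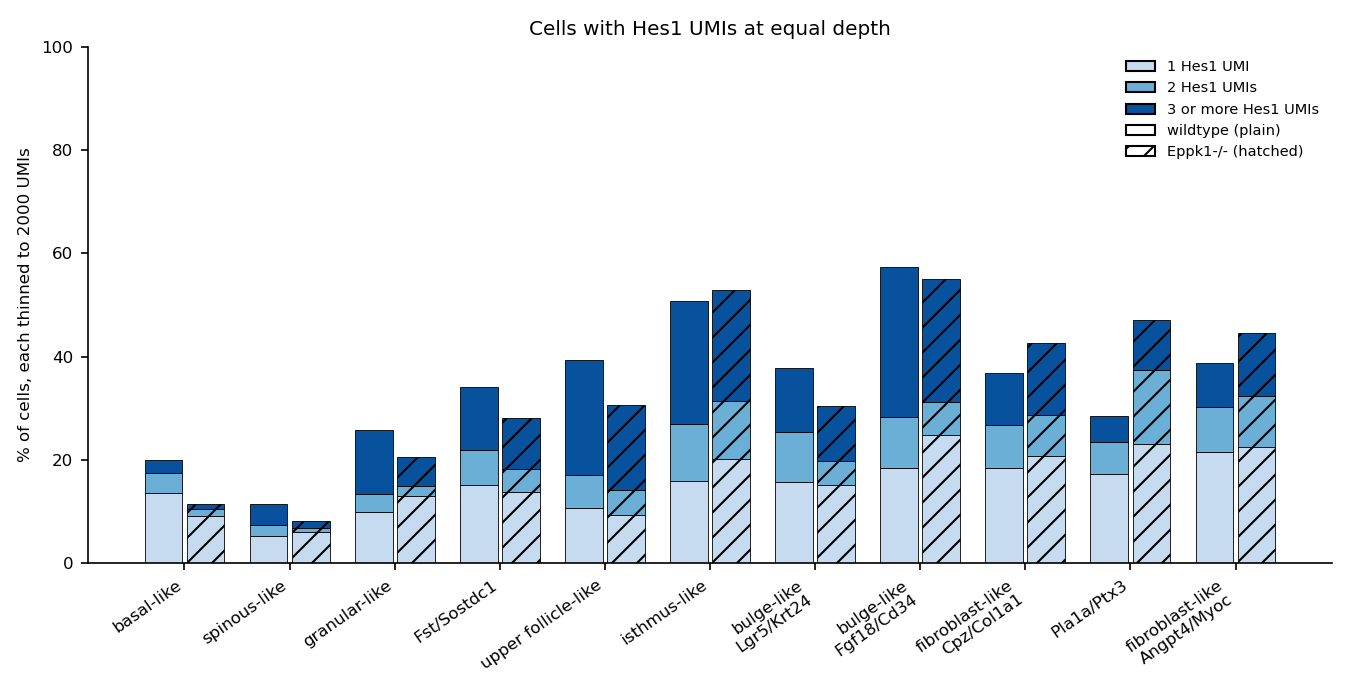
Percent of cells with 1, 2 and 3 or more Hes1 UMIs after thinning to 2000 UMIs per cell, with plain bars for the wildtype and hatched bars for the Eppk1-/- library. The bars reach 19.96% and 11.5% in basal-like cells, 25.7% and 20.6% in granular-like cells, and 28.5% and 47.0% in the Pla1a/Ptx3 cluster.

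Other measures also differed between the granular-like cells of the libraries. The summed level of 10 granular markers there was 27183 CPM in wildtype and 41036 CPM in the knockout, and that of 12 markers of the latest stage was 2182 and 3785 CPM, with 1 marker of each list at 0 in both libraries. Their part in the Hes1 value was not tested. Krt79, an upper follicle gene, had a UMI in 15.7% and 16.8% of granular-like cells. Granular-like cells with such a UMI had 960.4 and 455 CPM of Hes1 (log2 ratio -1.08), and those without had 257 and 92.3 CPM (-1.48). In the upper follicle-like class the same split, made after the values were seen, separated 911 and 891 CPM in cells with a Krt79 UMI (-0.03) from 334 and 102 CPM in cells without (-1.71, interval -2.18 to -1.28). With summed UMIs the lower Hes1 level was thus present without Krt79 in both classes and was not seen in the Krt79-bearing cells of the follicle. The follicle cells without Krt79 were 93 and 77, with 233 and 53 Hes1 UMIs. The split is given for summed UMIs only, whereas the whole upper follicle-like class had thinned means of 2.25 and 1.49 Hes1 UMIs per cell. Whether the Krt79-bearing cells differ at equal depth was not tested. The upper follicle-like class also differed in its markers between the libraries. Its summed level of 11 inner sheath and shaft markers was 657 CPM in wildtype and 2141 CPM in the knockout. That of 9 upper follicle markers was 36125 and 32051 CPM. The cells without Krt79 may therefore not be alike in both libraries, which was not tested.

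Immediate early and stress genes, known to respond to tissue dissociation, were measured beside Hes1, which belongs to the fast-responding genes. Of 21 such genes none passed the size rule in keratinocytes, where 19 had ratios below 0. Their median was -0.12, between -0.41 for Socs3 (121 and 90.7 CPM) and 0.07 for Fos (1784 and 1872 CPM). In granular-like cells their median was -0.06, their lowest value was -0.33, and 0 passed the rule. In basal-like cells 2 were lower, namely Junb and Socs3, with a list median of -0.16, and in spinous-like cells 1 was lower, namely Socs3.

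Other Notch pathway genes, 61 by name with 59 measured, were read by role. In keratinocytes 48 had at least 50 UMIs. Of these, 1 was higher and 2 were lower by the size rule, beside 2.4% and 5.1% of all genes. Their median log2 ratio was -0.01 beside -0.02 for all genes. Aph1c, a subunit of the gamma-secretase that cuts the receptor, was higher at 1.09 and 1.58 CPM (0.53, interval -0.15 to 1.22). Dtx4, a Deltex ubiquitin ligase of the receptor, was lower at 11.5 and 7.88 CPM (-0.55, interval -0.81 to -0.30). Hes5 was lower at 1.35 and 0.917 CPM (-0.54, interval -1.35 to 0.20, 48 and 22 UMIs), and its promoter is among those printed above. The Aph1c and Hes5 intervals include 0. The most abundant gene of each role differed little, with log2 ratios of -0.22 for Dlk2 (a non-canonical ligand), -0.15 for Lfng (a Fringe glycosyltransferase), -0.01 for Mib1 (a ubiquitin ligase of ligands), 0.03 for Furin (which cleaves the receptor precursor), 0.08 for Crebbp (a coactivator), 0.17 for Tle3 (a corepressor) and 0.17 for Dtx2 (a Deltex ligase).

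Nrarp, a target that limits Notch signalling in a feedback loop, was the target with the most UMIs after Hes1, at 156 and 118 CPM in keratinocytes (log2 ratio -0.40, interval -0.47 to -0.34). Among the compared classes it was highest in granular-like cells in wildtype and in upper follicle-like cells in the knockout. Granular-like cells had 383 CPM in wildtype and 263 CPM in the knockout (-0.54, interval -0.63 to -0.45). In the other interfollicular stages it did not follow Hes1, with 17.98 and 17.86 CPM in basal-like (-0.01) and 45.8 and 45.7 CPM in spinous-like cells (interval -0.25 to 0.24). In the follicle its order was the opposite, with 239 and 288 CPM in upper follicle-like (0.27) and 68.8 and 112 CPM in Lgr5/Krt24 bulge-like cells (0.71, interval 0.31 to 1.11), the class where Hes1 was lower by 0.62 on the log2 scale. In proliferating-like cells, where Hes1 was at -0.41, Nrarp had 71.3 and 44.95 CPM (-0.66, interval -1.29 to -0.07). Both targets thus had ratios below 0 in granular-like and proliferating-like cells, and opposite signs in upper follicle-like and Lgr5/Krt24 bulge-like cells.

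**Figure D4:**
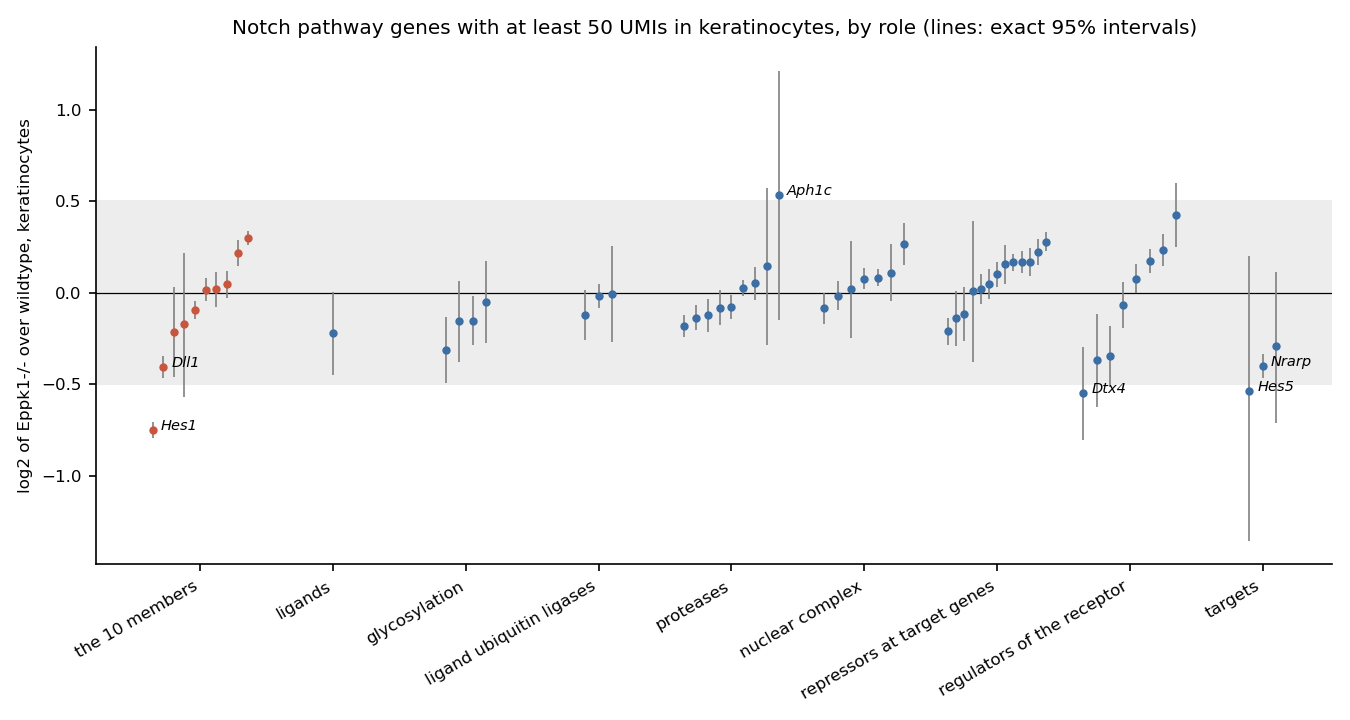
Log2 ratio of Eppk1-/- over wildtype in keratinocytes for members and other Notch pathway genes with at least 50 UMIs, by role, with red points for the members, blue points for the other genes, lines for exact 95% intervals and a grey band within 0.5 of 0. Hes1 lies lowest at -0.75, and Dtx4, Hes5 and Aph1c are the other labelled points past the band.

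Sebaceous-like cells (153 wildtype and 133 Eppk1-/-) differed in many genes, with 29.8% of all genes past the rule, a median log2 ratio of all genes of -0.17 and median depths of 6233 and 12888 UMIs. Of 8 members, 2 were higher (Notch2 at 66.2 and 96.6 CPM, Notch3 at 28.9 and 51.3 CPM) and 4 were lower. The lower ones were Dll1 at 62.0 and 21.04 CPM (-1.55, interval -2.14 to -0.999), Jag2 at 132 and 59.9 CPM (-1.13), Hes1 at 320 and 192 CPM (-0.73, interval -0.94 to -0.53) and Jag1 at 245 and 173 CPM (-0.51). Centred on the median of all genes, Jag1 was at -0.34 and no longer past the rule. Hes1 was at -0.24 as the mean of each cell's CPM and -0.25 with thinning, both under the rule, and 6.38% of wildtype and 8.53% of Eppk1-/- thinned cells had 3 or more Hes1 UMIs. Jag2 was at -0.48 as the mean of each cell's CPM, under the rule. Nrarp was higher here, at 75.3 and 112 CPM (0.57), and 9 of 21 early genes were lower.

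In the Pla1a/Ptx3 cluster and in fibroblast-like cells Hes1 was higher in the knockout or level with wildtype. The Pla1a/Ptx3 cluster held 280 CPM in the wildtype library against 496 CPM in the knockout library (0.82, interval 0.74 to 0.91), with a Hes1 UMI in 28.5% and 47.0% of thinned cells. Fibroblast-like cells with Cpz and Col1a1 had 361 and 485 CPM (0.43, under the rule), and those with Angpt4 and Myoc had 506 and 510.2 CPM (0.01). Dll1 in the Cpz/Col1a1 class was at 30.2 and 57.1 CPM (0.92, interval 0.66 to 1.18), although all of its UMIs lay in at most 10% of the cells in both libraries. The highest knockout cells held 52 and 44 of the 362 UMIs. It was past the rule in 8 of 9 alternatives, with a lowest value of 0.499. Jag1 was at 40.7 and 60.0 CPM in the Angpt4/Myoc class (0.56), past the rule in 5 of 9 alternatives with a lowest value of 0.39. In number, 1 of 10 members passed the rule in the Cpz/Col1a1 class, 2 of 8 in the Pla1a/Ptx3 cluster (Hes1 up, Notch1 down) and 1 of 7 in the Angpt4/Myoc class, beside 12.3%, 26.2% and 15.3% of all genes. Of the early genes, Fos, Jun and Egr1 were higher and Ier3 and Nr4a1 lower in the Pla1a/Ptx3 cluster, where 10 of 21 had ratios above 0, and their part in the Hes1 value was not tested.

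Among other pathway genes in these classes, Dtx4 was higher in all 3, with log2 ratios of 0.53 in Cpz/Col1a1, 0.63 in Pla1a/Ptx3 and 0.92 in Angpt4/Myoc cells. In the Pla1a/Ptx3 cluster 6 of 45 were higher and 3 lower, beside 15.0% higher and 11.3% lower among all genes. The list as a whole thus did not exceed all genes there. Among the higher ones were Dtx4, Cir1 (1.12, a corepressor that binds RBPJ), L3mbtl3 (0.81, another RBPJ-binding repressor), Rfng (0.53, a Fringe) and Adam17 (0.51, a protease). Dtx3l (-0.78), Tle1 (-0.65, a corepressor) and Furin (-0.59) were lower. In Angpt4/Myoc cells Mib2 (0.85) and Adam17 (0.52) were also higher and Hes6 was lower (-0.57, interval -1.36 to 0.22). In number, 3 of 41 were higher and 1 lower there, beside 8.74% and 6.55% of all genes.

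In macrophage-like cells Rbpj was higher in the knockout in both classes compared. Cells with Ccl8 and Cd209b had 268 and 362 CPM (0.43), and cells with Fcna and Lyve1 had 302 and 466 CPM (0.63, interval 0.48 to 0.77). Hes1 in Fcna/Lyve1 cells was at 63.1 CPM (185 UMIs) in wildtype and 23.6 CPM (32 UMIs) in the knockout, a log2 ratio of -1.40 (-2.01 to -0.87). In that class the median of all genes was -0.25, the median depth was 11851 and 5714 UMIs, 38.3% of all genes passed the rule and 13 of 21 early genes were higher, and the part of these differences was not tested. There 5 of 6 members passed the rule, with Notch1, Jag1, Rbpj and Maml2 higher. Of 8 members in Ccl8/Cd209b cells, Maml2 was higher (13.1 and 19.96 CPM, interval -0.09 to 1.35) and Jag2 lower (15.1 and 10.7 CPM, interval -1.28 to 0.28), beside 17.9% of all genes. The Hes1 value there, 62.1 and 87.4 CPM (0.49), was -0.07 as a mean over cells.

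In the Il1b/Clec4e cluster 1 of 5 members passed the rule, Jag1 at 107 and 58.4 CPM (-0.87), beside 30.9% of all genes and a median of all genes of -0.29. Langerhans or dendritic cell-like cells had 35.98 and 94.5 CPM of Hes1 (1.38), but 1 knockout cell held 39 of the 64 UMIs, and with a marker gate in place of clusters the value was -0.32. Dll1 in that class, 41.0 and 69.4 CPM (0.75), likewise came from 1 cell with 37 of 47 UMIs, so that 2 of 7 members passed the rule beside 14.8% of all genes. Notch1 in lymphocyte-like cells with Trdc was at 131 and 216 CPM, a log2 ratio of 0.72 on 32 and 30 UMIs whose interval of -0.05 to 1.49 includes 0. Hes1 in mast cell-like cells was at 959 and 833 CPM (-0.20, interval -0.54 to 0.14).

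Across the 20 classes of both libraries, 40 points that share 2 libraries and their depths, the genes most like each member in log2(CPM + 1) were found among 10839 genes, and the correlations are descriptive. Dll1 ran closest to Wnt10a (Pearson r = 0.92), Itga3 (0.90) and Krt14 (0.90), and Jag2 to Moxd1 (0.93), Itga3 (0.91) and Itgb4 (0.89), of which Krt14, Itga3 and Itgb4 are basal keratinocyte genes. Notch3 ran closest to Prss8 (0.92), Bnipl (0.89) and Rhov (0.89), Notch1 to Lemd3 (0.91), Ppp4r3b (0.88) and Zbtb7a (0.87), and Jag1 to Nxn (0.87), Slc7a6 (0.86) and Ovol2 (0.86). Rbpj was most like Arl5c (0.87), Gbp9 (0.86) and Mcub (0.85), and Maml2 most like Nynrin, Scmh1 and Mitf (0.85 each). The closest genes of Hes1, Zc3h7b (0.81), Mtmr9 (0.80) and Tubb2b (0.80), of Notch2, Tom1 (0.78), Atp6v1b2 (0.77) and Snap29 (0.76), and of Hey1, Tenm3 (0.75), Ism1 (0.75) and Hmcn1 (0.74), were less alike.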

How the data were processed

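The deposited files hold UMI counts, that is whole-number counts of probe-captured molecules per gene and cell, which the authors made with Cell Ranger 8.0.1 on mm10 (GRCm38) without normalization. Each genotype is 1 library, grouped by its label. The study's limits were applied to each cell (UMIs between 200 and 45000, genes between 100 and 7500, and mitochondrial UMIs of no more than 10%), and mitochondrial genes were removed. Clustering used Seurat 5.3.0 in R 4.3.3 with log-normalization, 2000 variable features without the genes described, 50 components, RPCA integration and resolution 0.5, and keratinocytes were clustered again. How clusters were named and joined was set after they were seen, and 2 mixed sub-clusters were left out. Doublets were not removed, and leaving out the 5% highest Scrublet scores (scanpy 1.11.5) was an alternative. UMIs were summed per class with Python 3.11.15, and 0.5 UMI was added to each sum for a log2 ratio. Poisson, conditional binomial and share intervals are exact at 95% (scipy 1.17.1), for counting error only, and 0 UMIs allow up to 3. The ratio script was tested on simulated data. TMM factors came from edgeR 4.0.16.

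Named genes are the 10 members, pathway genes past the size rule in keratinocytes or fibroblasts, the most abundant gene of each role, the highest and lowest early gene, and the 3 genes most like each member. Nrarp by class, pathway and early genes past the rule elsewhere, and Krt79 were named after their values were seen, and 1 gene that the rule names is not reported here. The members and gene lists were chosen with earlier results of these data known. Gene coordinates come from GENCODE M21 (GRCm38). The ratios of the members in keratinocytes and of Hes1 by class were repeated under up to 12 other choices of processing, with 4 more chosen after seeing the data. So were ratios of other members past the rule in keratinocyte, sebaceous-like and fibroblast-like classes and the Pla1a/Ptx3 cluster. Not every choice applied to every class. Other members in immune classes, member ratios by class under the rule other than those of Hes1, and the pathway and early genes, Nrarp among them, were not repeated.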

Additional observations from a re-analysis of the deposited data

Results flagged for a closer look

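For 5 members the log2 ratio of knockout over wildtype passed the size rule upward in some classes of cells and downward in others. These intervals left out 0. The difference between those classes was not tested, since each value comes from the same pair of libraries. How many of all genes do the same was not counted, so the 5 members are not set apart from other genes. The share of all genes past the rule in either direction was 38.3% in Fcna/Lyve1 macrophage-like cells and 30.9% in the Il1b/Clec4e cluster. It was 29.8% in sebaceous-like cells, 26.2% in the Pla1a/Ptx3 cluster and 14.8% in Langerhans or dendritic cell-like cells. Fgf18/Cd34 bulge-like and Cpz/Col1a1 fibroblast-like cells had 14.7% and 12.3%. Hes1 ran from 1.38 in Langerhans or dendritic cell-like cells, where 1 cell held most UMIs, to -1.40 in Fcna/Lyve1 macrophage-like cells. Dll1 ran from 0.92 in Cpz/Col1a1 fibroblast-like cells, where the highest knockout cells held 52 and 44 of 362 UMIs, to -1.55 in sebaceous-like cells. Jag2 ran from 0.63 in Fgf18/Cd34 bulge-like cells to -1.13 in sebaceous-like cells. Jag1 ran from 0.67 in Fcna/Lyve1 macrophage-like cells to -0.87 in the Il1b/Clec4e cluster, and Notch1 from 0.68 in Fcna/Lyve1 macrophage-like cells to -0.77 in the Pla1a/Ptx3 cluster. Notch1 in the lymphocyte-like class with Trdc was at 0.72, on 32 and 30 UMIs, with an interval of -0.05 to 1.49 that includes 0.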

How the results depend on the processing

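The Hes1 log2 ratio in keratinocytes lay between -0.79 and -0.42 over 15 alternatives. It was -0.63 as the mean of each cell's CPM, -0.42 with sub-clusters weighted by wildtype cell shares and -0.68 without the companion layer-like class, and 1 member passed the size rule except with that weighting (0), a rule of 1 (0) or a rule of 0.25 (3). The next-largest member, Dll1 at -0.40, was -0.49 with the weighting, while Maml2 came next at -0.41 with the mean of each cell's CPM and at -0.49 with thinning. Hes1 was lower by the rule in 7 of 18 classes, and in 6 to 8 under the 8 alternatives that keep all classes. Among the repeated ratios past the size rule, some changed sign. For Hes1 this was in Langerhans or dendritic cell-like cells under the marker gate with (-0.32) and without the cell filter (-0.32). For Dll1 it was in granular-like cells with thinning (0.080). For Notch3 it was in Fgf18/Cd34 bulge-like cells with the mean of each cell's CPM (-0.0055). Of the ratios under the rule, Hes1 changed sign in upper follicle-like cells (0.40 under the marker gate), isthmus-like cells (0.03 at resolution 1, and -0.73 under the marker gate), Ccl8/Cd209b macrophage-like cells (-0.10 with thinning), the Il1b/Clec4e cluster (0.11 with thinning) and Angpt4/Myoc fibroblast-like cells (-0.02 with TMM factors). In keratinocytes Hey1 reached 0.24 with the weighting, and Notch2, Notch3 and Rbpj, all close to 0, reached -0.01, -0.05 and -0.004. The cause was not tested. No paired analysis was possible because each genotype has 1 library. Genes under about 50 UMIs, such as Hey1 in interfollicular classes, were limited by depth. The spread between mice is unknown.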

Other observations

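A cluster led by Tnfsf11 and Cyp2g1 held 56 cells of the Eppk1-/- library and 0 of the wildtype library. Its Jag1 level was 232 CPM (27 UMIs), Notch1 was at 112 CPM (13 UMIs), Notch2 at 103 CPM (12 UMIs) and Hes1 at 85.9 CPM (10 UMIs), and Maml2 had 0 UMIs, which allows up to 3. The sub-cluster that joined keratin and class II genes, with 56 wildtype and 27 Eppk1-/- cells, held 304 and 76.9 CPM of Hes1 and 99.6 and 236 CPM of Rbpj. The sub-cluster that joined keratin and collagen genes, with 43 and 49 cells, held 573 and 424 CPM of Hes1 and 57.0 and 14.2 CPM of Dll1. In the gamma delta T-cell marker class with Trdc, Dll1 had 47 UMIs in wildtype and 1 in the knockout, 192 and 7.20 CPM, which is under the UMI minimum. The wildtype UMIs lay in 13 of 113 cells, with 16 of them in 1 cell.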
